A study of Mus musculus with 6 samples.

Results

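Genes that report the activity of the ERK signalling pathway were followed from mouse embryonic stem cells (mESCs) into cardiac precursor cell cultures (CPCCs). The set holds 10 genes chosen by symbol, *Spry1*, *Spry2*, *Spry4*, *Spred1*, *Spred2*, *Dusp4*, *Dusp6*, *Etv1*, *Etv4* and *Etv5*, out of the 16279 genes listed for either cell type. Bulk RNA-seq was available as 3 mESC libraries (S01, S02 and S03) and 3 CPCC libraries (S04, S05 and S06). All were male F1 cells of a C57BL/6J mother and a CAST/EiJ father, and each mESC clone descended from a single cell of a line made from its own blastocyst. The mESCs grew without feeder cells in 2i medium with serum, LIF, CHIR99021 and PD0325901, an inhibitor of MEK, the kinase that switches ERK on. CPCCs were made from the same 3 clones through hanging-drop aggregates and embryoid bodies in ascorbic acid. They were then plated in differentiation medium with serum, EGF and FGF2, which activate ERK, and cells of the fourth passage were used. The cultures are mixtures of cells. Cell type, the MEK inhibitor, LIF, CHIR99021, the ascorbic acid step and the growth factors changed together, so their effects cannot be told apart. In bulk RNA fewer expressing cells and less RNA per cell cannot be told apart either.

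Growth factors bind receptor tyrosine kinases, which through adaptor proteins load RAS with GTP, and RAS then drives the kinases RAF, MEK and ERK in turn. Active ERK raises the transcription of its own inhibitors and of a group of ETS transcription factors, so the RNA of these genes is widely used as a readout of the pathway. Sprouty and Spred proteins act on the steps at and above RAS, and the DUSP phosphatases remove phosphate from ERK itself. In mESCs, ERK signalling favours exit from pluripotency, and 2i medium blocks it for that reason. In the heart, FGF and EGF family signals through this pathway take part in the growth and specification of progenitors.

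Promoter windows of RefSeq (GRCm38.p6, the build of the tables), from 250 bases before to 50 bases after a gene's start, were given for 7 of the 10 genes in 9 windows. The windows shown here belong to the tested gene with the largest rise (*Dusp6*) and to the only gene that fell (*Etv5*). Also shown is *Spred1*, a feedback inhibitor that rose with little spread between libraries. *Etv5* has a window for each of 2 start sites. Capitals mark matches, on either strand, to CGGAAG, the core of many ETS factor sites, and to TGAATG, the start of the octamers that the repressor CIC binds.
Dusp6, chr10:99262981-99263280, + strand: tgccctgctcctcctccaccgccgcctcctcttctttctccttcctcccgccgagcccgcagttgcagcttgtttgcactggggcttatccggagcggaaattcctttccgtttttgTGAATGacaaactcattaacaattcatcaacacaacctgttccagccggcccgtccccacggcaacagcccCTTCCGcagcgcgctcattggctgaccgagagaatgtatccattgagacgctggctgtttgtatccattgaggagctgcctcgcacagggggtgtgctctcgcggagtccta
Spred1, chr2:117120821-117121120, + strand: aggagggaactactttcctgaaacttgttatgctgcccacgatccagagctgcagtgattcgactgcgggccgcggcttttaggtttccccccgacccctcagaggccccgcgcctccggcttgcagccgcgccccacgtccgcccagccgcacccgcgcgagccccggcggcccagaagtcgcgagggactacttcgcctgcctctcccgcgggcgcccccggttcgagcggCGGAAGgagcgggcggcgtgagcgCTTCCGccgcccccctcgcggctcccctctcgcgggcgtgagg
Etv5 upstream start, chr16:22439521-22439820, - strand: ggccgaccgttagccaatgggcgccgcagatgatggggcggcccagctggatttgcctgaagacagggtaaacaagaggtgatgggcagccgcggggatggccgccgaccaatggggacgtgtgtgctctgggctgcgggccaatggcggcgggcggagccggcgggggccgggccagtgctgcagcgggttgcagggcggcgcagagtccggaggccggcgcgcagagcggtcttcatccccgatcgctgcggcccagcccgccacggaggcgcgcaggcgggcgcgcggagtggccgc
Etv5 downstream start, chr16:22438319-22438618, - strand: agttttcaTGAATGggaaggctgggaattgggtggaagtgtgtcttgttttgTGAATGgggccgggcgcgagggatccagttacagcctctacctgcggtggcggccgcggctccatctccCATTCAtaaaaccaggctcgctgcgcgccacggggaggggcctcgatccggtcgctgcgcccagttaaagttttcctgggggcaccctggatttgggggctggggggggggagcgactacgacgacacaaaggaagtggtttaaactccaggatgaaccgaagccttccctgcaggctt
The letters CGGAAG (either strand) began 62 bases before the start of *Dusp6*, 17 bases before the start of *Spred1* and at base 8 of its transcript, and 43 bases before the start of *Spred2*. They were in none of the other 6 windows of these genes, and 16.9% of all 32851 windows held them. TGAATG (either strand) began 133 bases before the start of *Dusp6*, and 242, 198 and 129 bases before the downstream start of *Etv5*, against 12.7% of all windows. These short cores were added to the search late, TGAATG after the windows had been read. The whole CIC octamers TGAATGAA and TGAATGGA, the ETS site CCGGAAGT, the AP-1 site TGANTCA, the CRE TGACGTCA and the CArG box of SRF were searched on both strands and had no match in the 9 windows. Each was found in 1.21% to 7.81% of all windows. CCGGAAGT contains CGGAAG, and both octamers contain TGAATG, so these searches overlap. A match here describes letters and is not evidence of binding.

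The libraries held 6442639 to 6907330 estimated counts in mESCs and 8468819 to 11436062 in CPCCs. Levels are in CPM, counts scaled to 1000000 per library and normalized over genes that both tables list, and 3 counts, the floor used here, equal 0.298 to 0.463 CPM in a library. All 8 markers of pluripotent cells were lower in CPCCs by edgeR's quasi-likelihood test, and their summed level went from 5304 to 5568 CPM in mESC libraries to 122, 224 and 286 CPM in S04, S05 and S06. *Dppa5a* and *Tfcp2l1* had the highest CPM of this list in mESCs, a measure that is not corrected for gene length. Beside the marker counts given here, 31.7% of all genes tested rose and 29.7% fell. The cardiac markers were mixed in the CPCCs. Of 10 cardiac precursor genes, *Fst* (140.3 ± 14.5 CPM in CPCCs, SD, n = 3) and *Tnnt2* (51.6 ± 44.2 CPM) rose, *Kit* fell, *Gata4* and *Isl1* did not pass the test, 4 were listed for CPCCs alone and *Tbx5* for mESCs alone. *Tnnt2* had 8, 8 and 16 counts in mESCs, with 1 mESC library over the limit of the filter on low values, so it entered the test through the CPCCs. Among the 4 genes listed for CPCCs alone, *Nkx2-5* had 1.59, 0 and 0.917 CPM in S04, S05 and S06. Of 8 mesenchymal genes 4 rose, 3 were listed for CPCCs alone and 1 did not pass the test. Their summed levels were 12.7 to 20.0 CPM in mESCs and 9109 to 13678 CPM in CPCCs, led by *Acta2* and *Col1a1*. Both of these genes had 0 mESC libraries over the filter's limit, so they too entered the test through the CPCCs. All 3 neural genes tested rose and *Pax6* was listed for CPCCs alone. Their summed levels were 38.8 to 46.4 CPM in mESCs and 531 to 566 CPM in CPCCs, led by *Nes* and *Tubb3*. *Sox1* had 3.78, 23.4 and 50.9 CPM in S04, S05 and S06, with S04 close to the 3.66 CPM of S03. The 5 endoderm genes summed to 1.70 to 7.17 CPM in mESCs and 31.4 to 55.3 CPM in CPCCs. *Foxa2* and *Gata6* were higher, *Sox17* was removed by the filter, and *Afp* and *Ttr* were in neither table. *Foxa2* and *Gata6*, like *Sox1* among the neural genes, had 1 mESC library over the filter's limit and entered the test through the CPCCs. *Sox17* had 7.75, 0.728 and 7.11 CPM in S04, S05 and S06. With missing genes set to 0 or 3 counts it was tested and rose (adjusted p = 0.029 and 0.035, edgeR). The 5 endothelial genes summed to 92.3 to 101.3 CPM in mESCs, mostly *Pecam1*, and to 11.8 to 23.9 CPM in CPCCs. Only *Pecam1* fell, while *Cdh5* and *Kdr* were listed for CPCCs alone, *Tek* did not pass the test and *Tie1* was in neither table. *Cdh5* had 126, 11 and 14 counts in S04, S05 and S06, so most of its level came from S04. S04 stood apart among the CPCC libraries, with the lowest pluripotency sum and a *Tnnt2* level of 102.6 CPM against 24.0 and 28.3 CPM. The part that these other cell types play in the results that follow was not tested.

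Most of the ERK feedback and output genes were higher in CPCCs. *Dusp6*, *Etv4*, *Spred1*, *Spry1*, *Dusp4* and *Etv1* rose between 3.07-fold and 122-fold, *Spry4* was listed for CPCCs alone, and *Spry2* and *Spred2* did not pass the test. *Etv5* went the other way and fell 2.86-fold. In counts, of the 9 genes tested 6 rose, 1 fell and 2 did not pass an adjusted p of 0.05 (edgeR's quasi-likelihood test, adjusted by Benjamini-Hochberg over 12471 genes). Over all genes tested, 31.7% rose and 29.7% fell. All 3 CPCC libraries were above all 3 mESC libraries for 7 of the 9 genes and below them for 1, against 35.3% and 34.5% of all genes tested. The median log2 fold change was 3.47 over the 9 genes, 3.62 with *Spry4* at its bound, and 0.03 over all genes tested. *Dusp4*, *Dusp6* and *Etv4* passed the filter on low values through their CPCC libraries, with only 1 mESC library each over its limit of 1.33 CPM, so these genes entered the test only because they were high there, and the counts and median above support nothing by themselves. With at least 10 counts asked of every library, these genes drop out and 3 rose, 1 fell and 2 did not pass.

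**Figure D1:**
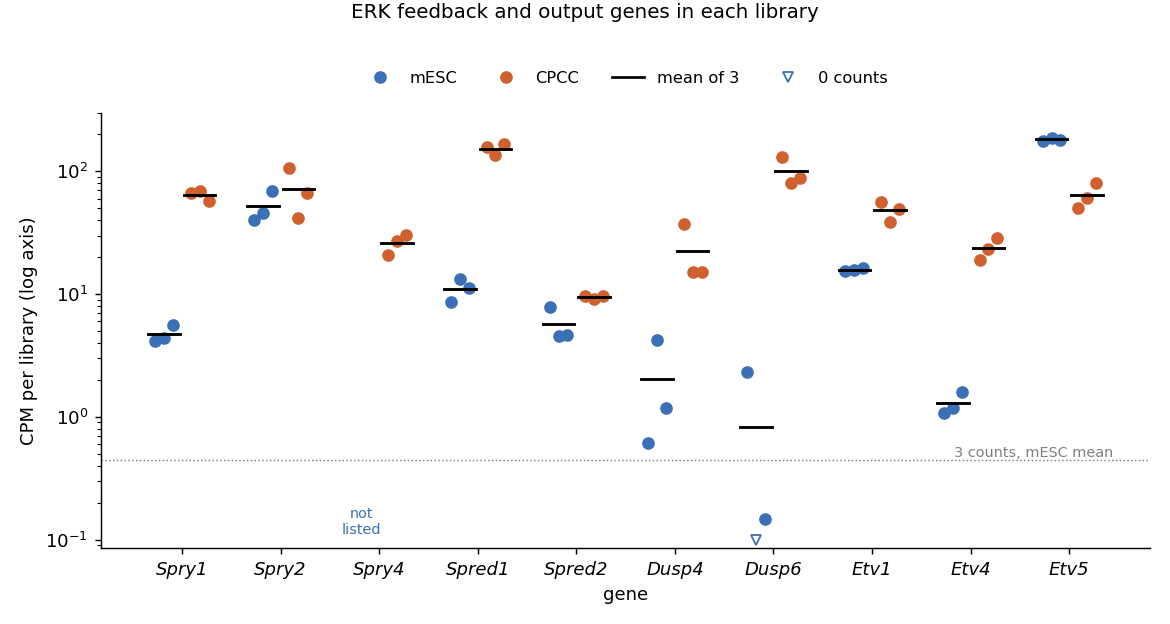
Level of each gene in each library, in CPM on a log axis, with mESC libraries in blue, CPCC libraries in orange, the mean of 3 libraries as a bar, an open triangle for 0 counts and a dotted line at 3 counts (mean over the mESC libraries). CPCC points lie above mESC points for 7 of the 9 genes in both tables, below them for *Etv5*, and among them for *Spry2*.

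**Figure D2:**
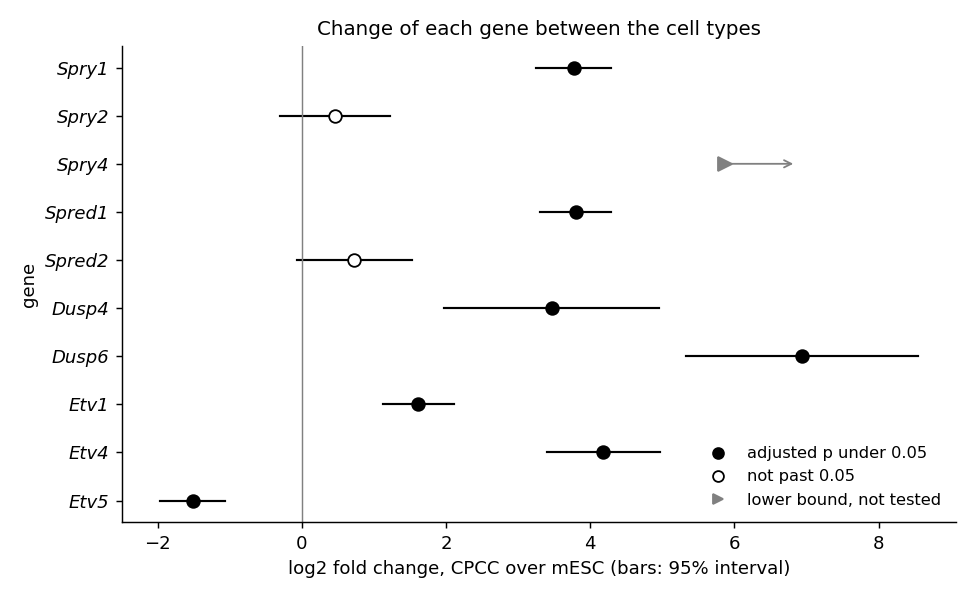
Log2 fold change of CPCC over mESC for each gene with its 95% interval, filled where the adjusted p was under 0.05, and an arrow from the lower bound for *Spry4*. Among the tested genes *Dusp6* lies farthest to the right at 6.94, and *Etv5* is the only gene left of 0, at -1.51.

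Among the Sprouty genes, whose proteins restrain signalling from receptor tyrosine kinases to RAS, *Spry1* and *Spry4* were the ones that separated the cell types. *Spry1* (chromosome 3, 37639947 to 37644600) had 4.17, 4.41 and 5.56 CPM in mESCs (S01 to S03 in order, as for all values below) and 66.6, 69.2 and 57.6 CPM in CPCCs (S04 to S06). Each CPCC library was far above every mESC library, with little spread within a cell type. The log2 fold change was 3.77 (SE 0.23, adjusted p = 3.45e-06, edgeR), or 13.6-fold. In the annotation (basic set of GENCODE M21), 710 of its 2906 exon bases overlap *Gm42922* on the opposite strand, a gene that neither table lists. Whether counting used the strand is not given in the sources used here, so reads of the pair cannot be told apart in that stretch.

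*Spry2* (chromosome 14, 105891947 to 105896820), the Sprouty gene with the highest level in mESCs, had 40.2, 46.2 and 69.6 CPM in mESC libraries and 106.2, 42.0 and 66.5 CPM in CPCC libraries. The groups overlapped, and S04 alone was above all mESC libraries. Its log2 fold change of 0.46 (SE 0.34, 95% interval -0.31 to 1.23) did not pass the test (adjusted p = 0.264, edgeR). Leaving out 1 library at a time moved it from 0.08 without S04 to 0.74 without S05, and no alternative took it past the threshold (adjusted p from 0.0756 to 0.815 by edgeR and DESeq2, the 2-fold test aside). *Spry4* (chromosome 18) is not in the mESC table, which leaves out genes with a sum under 10 counts over its libraries. In CPCCs it had 20.7, 27.0 and 30.6 CPM, or 26.1 ± 5.03 (SD, n = 3), which is at least 58.3-fold higher than 3 counts in each mESC library.

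The Spred genes also went separate ways. Their proteins bring the RAS inactivator neurofibromin to the membrane. *Spred1* (chromosome 2, 117121071 to 117182278) had 8.65, 13.2 and 11.1 CPM in mESC libraries and 156.8, 136.3 and 166.2 CPM in CPCC libraries. Every CPCC library was far above every mESC library, and both groups kept within a narrow band. Its log2 fold change was 3.80 (SE 0.22, adjusted p = 2.99e-06, edgeR), or 13.9-fold. *Spred2* (chromosome 11, 19924442 to 20022598) had 7.88, 4.56 and 4.68 CPM in mESC libraries and 9.64, 9.09 and 9.63 CPM in CPCC libraries. All CPCC libraries were above all mESC libraries, but S01 came close to them. The log2 fold change of 0.73 (SE 0.35, 95% interval -0.07 to 1.52) did not pass the test (adjusted p = 0.0993, edgeR). It was 1.03 without S01 (adjusted p = 0.0526, edgeR), and the lowest adjusted p of any alternative was 0.0518. Within a library, where normalization cancels, the log2 ratio of *Spred1* to *Spred2* counts was 0.13, 1.52 and 1.24 in mESCs and 4.02, 3.90 and 4.10 in CPCCs. The difference of 3.04 had p = 0.10 in a two-sided exact permutation test, the smallest that 3 against 3 libraries allow.

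The DUSP genes encode phosphatases that act on ERK, *Dusp6* in the cytoplasm and *Dusp4* in the nucleus. *Dusp6* (chromosome 10, 99263231 to 99267490) had 15, 0 and 1 counts in the mESC libraries, in library order, and 1317, 668 and 768 counts in the CPCC libraries. In CPM these were 2.32, 0 and 0.146 against 130.9, 81.0 and 88.0, so S02 and S03 were under the floor of 3 counts and S01 was not. Its log2 fold change was the largest among the tested genes of the set at 6.94 (SE 0.71, 95% interval 5.33 to 8.54, adjusted p = 5.08e-05, edgeR). *Spry4*, which has a lower bound only, cannot be ranked against it. Without S01 the mESC side rested on 1 count in 2 libraries and the log2 fold change was 10.1 (adjusted p = 4.69e-05, edgeR). The direction held without any one library, while the size of the change depends on S01. *Dusp4* (chromosome 8, 34807610 to 34819895) had 4, 29 and 8 counts, or 0.618, 4.27 and 1.17 CPM, in mESC libraries and 37.2, 15.2 and 15.2 CPM in CPCC libraries. S02 was the highest mESC library and S04 the highest CPCC library, and the groups did not overlap. The log2 fold change was 3.47 (SE 0.66, adjusted p = 0.00168, edgeR). It was 4.63 without S02 and 2.91 without S04, and the adjusted p over the alternatives reached 0.0123 at most, without S03.

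The 3 ETV genes encode the PEA3 group of ETS transcription factors, which carry ERK signals to target genes. *Etv5* (chromosome 16, 22381313 to 22439571) had 178.1, 187.5 and 180.6 CPM in mESC libraries and 50.0, 61.0 and 80.3 CPM in CPCC libraries. It was the only gene of the set with every CPCC library below every mESC library. Its level fell by 1.51 on the log2 scale (SE 0.20, adjusted p = 2.13e-04, edgeR), and stayed past the threshold in a test against a change of 2-fold (adjusted p = 0.0153, edgeR's glmTreat). *Etv4* (chromosome 11, 101769748 to 101785311) had 7, 8 and 11 counts, or 1.08, 1.18 and 1.61 CPM, in mESC libraries and 19.0, 23.4 and 28.8 CPM in CPCC libraries. The mESC libraries lay close together at the low end and the CPCC libraries far above them. Its log2 fold change was 4.18 (SE 0.35, adjusted p = 1.59e-05, edgeR), or 18.2-fold. *Etv1* (chromosome 12, 38780082 to 38868216) had 15.3, 15.7 and 16.2 CPM in mESC libraries and 56.6, 38.9 and 49.5 CPM in CPCC libraries. The mESC values were nearly equal, and each CPCC library was above them. The log2 fold change was 1.62 (SE 0.22, adjusted p = 2.24e-04, edgeR), or 3.07-fold.

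Because *Etv5* fell while *Etv1* and *Etv4* rose, the makeup of the ETV group changed. Per kilobase of exon, *Etv5* made up 94.5%, 94.6% and 93.9% of the group's summed CPM in mESCs, but 44.1%, 50.0% and 51.4% in CPCCs. *Etv4* went from 1.12% ± 0.245 to 30.4% ± 2.10 and *Etv1* from 4.56% ± 0.142 to 21.1% ± 5.83 (SD, n = 3 in each cell type). Each of these shares separated the cell types with p = 0.10 in a two-sided exact permutation test, the smallest this design allows. The group's sum itself was 46.8 to 49.2 CPM per kilobase in mESC libraries and 28.2, 30.3 and 38.8 in CPCC libraries, all below the mESC range. As a ratio of counts within a library, log2 of *Etv5* over *Etv4* was between 6.75 and 7.26 in mESCs and between 1.38 and 1.48 in CPCCs. That ratio was close to equal in the 3 CPCC libraries, although the levels of both genes differed among them. *Spred1* and *Spred2* showed a like shift, from 56.1% ± 12.6 *Spred1* to 91.4% ± 0.562, and *Spry1* and *Spry2* went from 6.26% ± 0.771 *Spry1* to 41.2% ± 11.8 (SD, n = 3, both p = 0.10, exact permutation test). For the DUSP pair, the *Dusp6* share was 78.6%, 0% and 10.9% in mESCs, on 0 to 29 counts of either gene in a library, and 77.5%, 84.0% and 85.0% in CPCCs. These shares overlapped between the cell types (p = 0.20, two-sided exact permutation test).

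**Figure D3:**
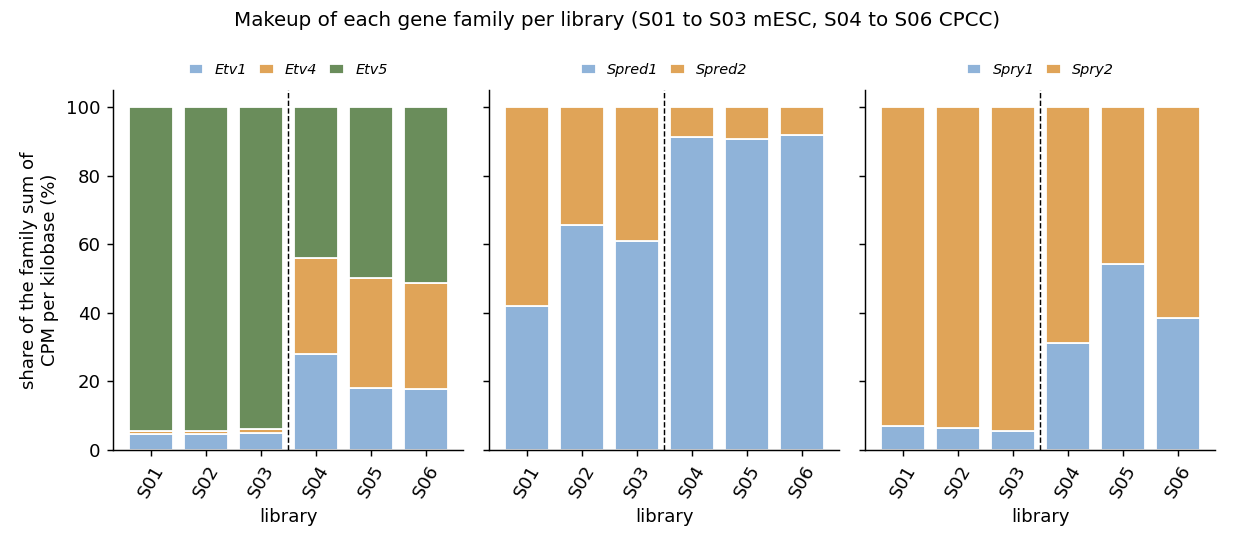
Share of each gene in its family's summed CPM per kilobase of exon, in percent, as stacked bars for each library, with the dashed line between mESC (S01 to S03) and CPCC (S04 to S06) libraries. *Etv5* takes 93.9% to 94.6% of the ETV group in mESCs and 44.1% to 51.4% in CPCCs, and *Spred1* and *Spry1* take larger shares of their pairs in CPCCs.

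The order of levels within a cell type also differed. Levels of different genes of the set are set side by side only per kilobase of exon. The caveat is that the exon union of the transcripts in GENCODE's basic set stands in for the transcript in use. In mESCs *Etv5* came first with 45.2 ± 1.21 CPM per kilobase and *Spry2* next with 24.9 ± 7.46 (SD, n = 3). *Etv1* followed at 2.19 ± 0.0653, and these 3 had ranges that did not touch those of their neighbours. The other 6 genes had means of 0.294 to 1.62 CPM per kilobase, and each overlapped the next in that order. In CPCCs the first places went to *Dusp6* (35.7 ± 9.66), *Spry2* (34.3 ± 15.5), *Spred1* (22.6 ± 2.25), *Spry1* (22.2 ± 2.09) and *Etv5* (15.8 ± 3.81 CPM per kilobase, SD, n = 3), each overlapping the next. *Etv4* (9.88 ± 2.04) stood apart from *Etv5* and headed a second overlapping run with *Dusp4*, *Etv1* and *Spry4* down to 5.49 ± 1.06. *Spred2* was last at 2.13 ± 0.0701, apart from *Spry4*. *Spry2* thus kept the second place in both cell types, *Dusp6* went from last of 9 to first of 10, and *Etv5* from first to the fifth.

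The CPCC libraries differed among themselves in a way that split the set. S04 was the highest CPCC library for *Spry2*, *Spred2*, *Dusp4*, *Dusp6* and *Etv1*, S06 for *Spry4*, *Spred1*, *Etv4* and *Etv5*, and S05 for *Spry1*. *Dusp4* and *Spry2* spread most, with the highest CPCC library 2.45 and 2.53 times the lowest. *Spry4*, *Etv4* and *Etv5* ran the other way and were lowest in S04, with 1.48 to 1.61 times between the highest and the lowest library. *Spred2* differed by 1.06 times. The summed pluripotency markers also ran from S04 (122 CPM) to S05 (224 CPM) to S06 (286 CPM), the order of *Spry4*, *Etv4* and *Etv5*. Single markers of other cell types went both ways. *Tnnt2* and *Gata6* (40.1, 7.52 and 7.33 CPM in S04, S05 and S06) were highest in S04. *Gata4* (1.99, 2.79 and 5.62 CPM), *Foxa2* (5.96, 47.1 and 17.0 CPM), *Sox1* and *Pax6* were lowest there. Whether these markers bear on the spread of the ERK genes was not tested, and 3 libraries allow no test of such an order.

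**Figure D4:**
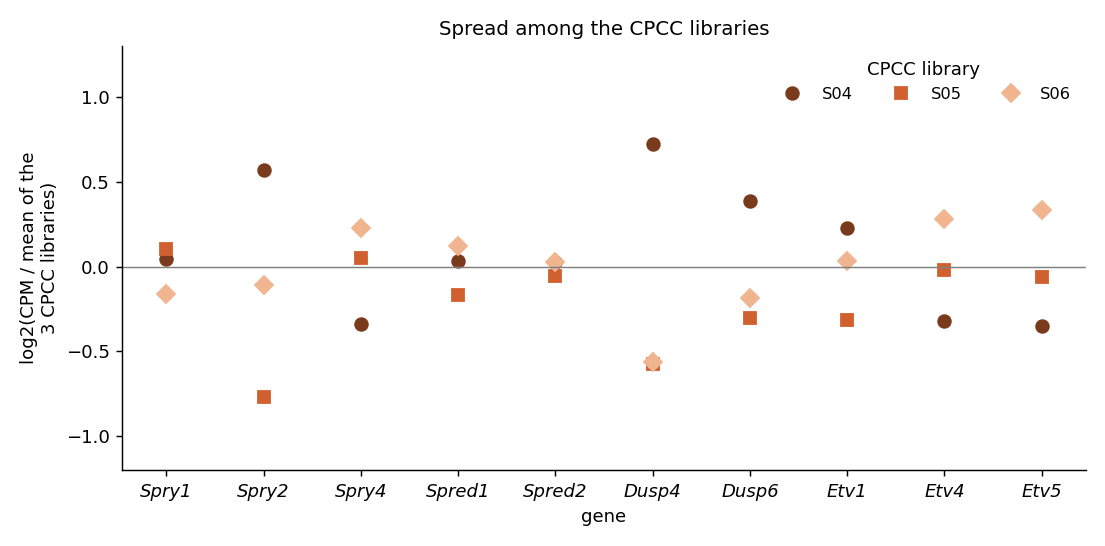
Log2 of each gene's CPM in a CPCC library over the mean of the 3 CPCC libraries, with a symbol for each library. S04 lies highest for *Dusp4* (0.72) and *Spry2* (0.57) and lowest for *Etv5* (-0.35), *Spry4* (-0.34) and *Etv4* (-0.32).

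Likeness of pattern was measured as the root mean square difference of log2 CPM over the 6 libraries, after centring each gene on its own mean. For *Dusp6*, the nearest of all genes tested were *Pcp4l1* (0.42), *Runx1* (0.54) and *Arhgef28* (0.56), against a median of 3.79 over all genes. For *Etv5* they were *Saal1* (0.05), *Rfc1* (0.06) and *Ddx20* (0.06), against a median of 0.92. Within the set, *Spry1* and *Spred1* were each other's nearest (0.24), and *Etv4* was nearest to *Spry1* (0.27). *Dusp4* was nearest to *Spred1* (0.69), *Spry2* to *Spred2* (0.60), and *Spred2* and *Etv1* to each other (0.51). *Dusp6* and *Etv5* had no close partner in the set, at 2.02 from *Etv4* and 1.12 from *Spry2*. With 3 libraries on each side the measure follows the difference between the cell types above all.

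The rest of the pathway was examined in 79 other genes on 8 lists. Of the 67 tested, 35 rose, 8 fell and 24 did not pass the test, so 64.2% were called, close to the 61.4% of all genes tested. By direction, 52.2% rose and 11.9% fell, against 31.7% and 29.7% of all genes tested. Their median log2 fold change was 0.70, against 0.03 over all genes. A further 7 were listed for CPCCs alone, 3 for mESCs alone, 1 in neither table, and 1 (*Ksr2*) was removed by the filter. Genes outside the naming rule are named in what follows only to complete a count, and were chosen after their values had been seen.

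Receptors for the growth factors in the CPCC medium were among the genes that rose. Of 8 FGF and EGF family receptors, 6 were tested, of which 4 rose (*Egfr*, *Fgfr2*, *Erbb2* and *Fgfr1*) and 2 (*Fgfr3* and *Erbb3*) did not pass the test. As shares, 66.7% rose and 0% fell, against 31.7% and 29.7% of all genes tested. *Fgfr1* (log2 fold change 0.61, adjusted p = 0.0361, edgeR) lost its call without S01, S02, S05 or S06, with an adjusted p up to 0.147. *Egfr*, the receptor of EGF, went from 1.39, 1.62 and 1.90 CPM to 134.8, 84.3 and 57.0 CPM. No mESC library came near a CPCC library, and S04 was again the highest. The log2 fold change was 5.80 (SE 0.40, adjusted p = 6.15e-06, edgeR). *Fgfr2*, a receptor of FGF ligands, had a log2 fold change of 2.45 (SE 0.39, adjusted p = 6.56e-04, edgeR), from 4.36 ± 1.85 to 23.9 ± 7.85 CPM (SD, n = 3). *Erbb4* was listed for CPCCs alone with 26, 20 and 58 counts, at least 8.68-fold higher than the floor, or 5.59-fold without S06. *Fgfr4* was listed for mESCs alone with 2, 0 and 9 counts, too few for a fold.

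Between receptor and RAS, 11 adaptors and regulators were tested, and 6 rose, 3 fell (*Frs3*, *Gab1* and *Grb2*) and 2 (*Sos1* and *Rasa1*) did not pass. Thus 54.5% rose and 27.3% fell, against 31.7% and 29.7% of all genes tested. The largest rises were of *Nf1*, which encodes neurofibromin, at a log2 fold change of 2.25 (SE 0.21, adjusted p = 2.92e-05, edgeR) and of *Frs2*, the docking protein of FGF receptors, at 1.69 (SE 0.32, adjusted p = 0.00176, edgeR). *Frs3* fell by 1.35 and *Gab1* by 0.90 on the log2 scale, but *Frs3* lost its call without S01, S03, S04 or S06 (adjusted p up to 0.102, edgeR). *Sos2*, among those that rose, lost it without S01 or S02 (adjusted p up to 0.0699), and *Rasa1* rose past the threshold without S03 or S06 (adjusted p = 0.0383 and 0.0386, edgeR). Of 6 RAS family GTPases, *Rras* and *Nras* rose by 1.21 and 0.78, *Mras* fell by 1.02 on the log2 scale, and 3 did not pass. These shares, 33.3% higher and 16.7% lower, stand against 31.7% and 29.7% of all genes tested. *Hras*, which did not pass, rose past the threshold without S02, S04 or S06 (adjusted p from 0.0437 to 0.0499, edgeR). *Rras2*, which did not pass either, fell past it without S04 (adjusted p = 0.0105, edgeR).

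In the kinase cascade and its scaffolds, 5 of 11 genes tested rose, 2 fell and 4 did not pass. As shares, 45.5% rose and 18.2% fell, against 31.7% and 29.7% of all genes tested. *Pea15a*, whose protein holds ERK in the cytoplasm, rose from 21.9 ± 2.66 to 826.7 ± 196.7 CPM (SD, n = 3), a log2 fold change of 5.24 (SE 0.24, adjusted p = 1.48e-06, edgeR). *Shoc2*, a scaffold that helps activate RAF, rose by 1.36. *Braf*, also among those that rose, lost its call without S01 or S02 (adjusted p up to 0.055, edgeR). *Map2k1*, which encodes MEK1, fell by 1.10 on the log2 scale (SE 0.21, adjusted p = 0.00197, edgeR). Of 14 kinases and transcription factors on which ERK acts, 5 rose, 1 fell and 8 did not pass. Thus 35.7% rose, near the 31.7% of all genes tested, and 7.14% fell, against 29.7%. In all 42.9% were called, below the 61.4% of all genes tested. *Ets2*, which did not pass, fell past the threshold without S04 (adjusted p = 0.0336, edgeR). The ternary complex factors *Elk3* and *Elk4* rose by 5.21 and 3.36 on the log2 scale, with 6.06 for *Elk3* without S03 and 3.97 for *Elk4* without S01. *Elk4* had 10, 3 and 5 counts in mESCs and entered the test through its CPCC libraries, as did *Dusp2*, and both were tested only because of their level there. The kinase gene *Rps6ka1* fell by 2.03 on the log2 scale (adjusted p = 6.96e-05, edgeR). *Ets1* was listed for CPCCs alone at 64.1 ± 18.9 CPM (SD, n = 3), at least 143-fold higher than the floor.

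Other genes used as readouts of ERK activity moved mostly upward. Of 10, 7 of the 8 tested rose, none fell and *Epha4* did not pass, against 31.7% higher and 29.7% lower over all genes tested, while *Egr1* and *Fosl1* were listed for CPCCs alone. *Ccnd1*, among those that rose, lost its call without S01 or S03 (adjusted p up to 0.0693, edgeR), and *Epha4* fell past the threshold without S04 (adjusted p = 0.00374, edgeR). *Phlda1* had 7.26, 5.88 and 6.14 CPM in mESC libraries and 307.0, 210.6 and 158.2 CPM in CPCC libraries. The groups were wide apart, with S04 highest, and the log2 fold change was 5.13 (SE 0.30, adjusted p = 3.01e-06, edgeR). *Ier3*, an immediate early gene, rose by 3.88 (SE 0.35, adjusted p = 2.43e-05, edgeR). *Egr1*, an immediate early transcription factor, had 63.9, 101.7 and 73.9 CPM in CPCCs and was at least 178-fold higher than the floor. *Fosl1* had 15.0, 2.67 and 1.15 CPM, so most of its level came from S04, and it was at least 14.0-fold higher, or 4.26-fold without S04.

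Among 11 other inhibitors of the pathway, 5 of the 8 tested rose, 1 fell and 2 (*Dusp7* and *Pebp1*) did not pass. *Spred3* and *Dusp5* were listed for CPCCs alone, and *Spry3* in neither table. As shares, 62.5% rose and 12.5% fell, against 31.7% and 29.7% of all genes tested. *Dusp9*, a cytoplasmic ERK phosphatase like *Dusp6*, was the one that fell. It had 230.8, 213.3 and 186.5 CPM in mESC libraries and 37.5, 41.4 and 60.1 CPM in CPCC libraries. Its direction was thus opposite to that of *Dusp6*, with no overlap between the cell types for either gene, and its log2 fold change was -2.18 (SE 0.22, adjusted p = 4.39e-05, edgeR). *Errfi1*, an inhibitor of EGFR, rose by 1.99 (SE 0.21, adjusted p = 5.57e-05, edgeR). *Dusp2* rose by 2.26 on 2 to 7 counts in mESC libraries (adjusted p = 0.0197, edgeR), and lost this call without S02, S03 or S04 (adjusted p up to 0.0728, edgeR). *Spred3* had 17.2 ± 3.07 CPM and *Dusp5* 5.55 ± 3.17 CPM in CPCCs (SD, n = 3), at least 38.4-fold and 12.4-fold higher than the floor. Of 6 further ETS factor genes, *Etv6* rose by 1.26 (adjusted p = 0.00132, edgeR) and *Etv3* and *Gabpa* did not pass. Of those tested 33.3% rose, near the 31.7% of all genes tested. *Gabpa* fell past the threshold without S04 (adjusted p = 0.00105, edgeR). *Fli1* was listed for CPCCs alone (5.42 ± 1.85 CPM, at least 12.1-fold higher than the floor). *Etv2* (9, 33 and 15 counts, at least 8.39-fold lower in CPCCs, or 5.35-fold without S02) and *Erg* (0, 8 and 7 counts) were listed for mESCs alone.

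**Figure D5:**
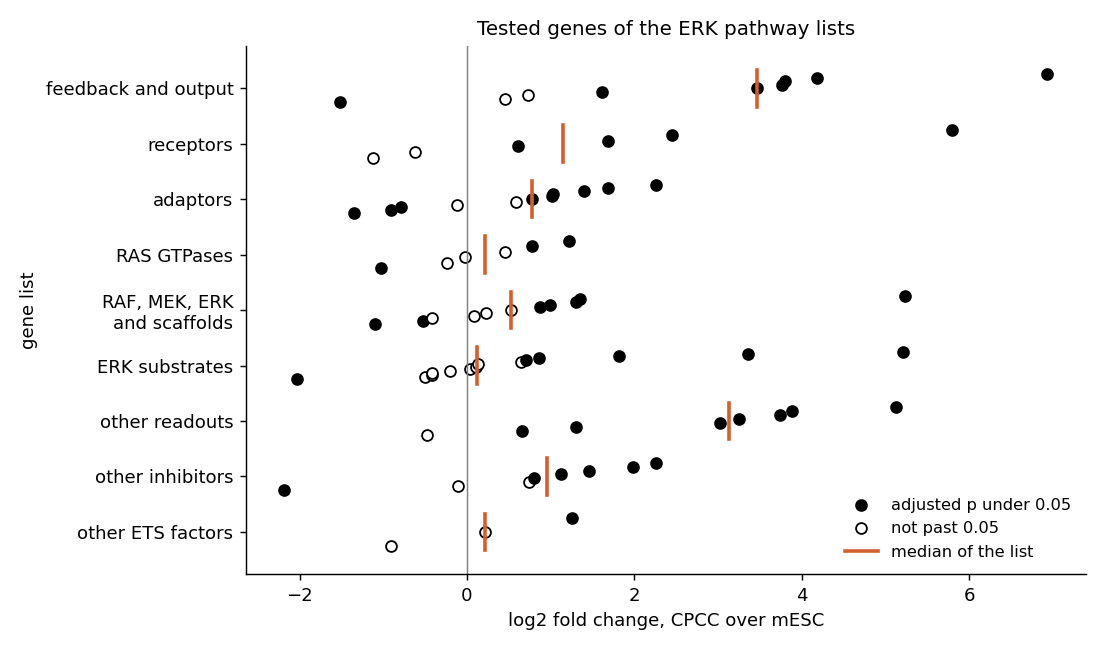
Log2 fold change of CPCC over mESC for each tested gene of the feedback and output set and of 8 other pathway lists, filled where the adjusted p was under 0.05, with the median of each list as an orange bar. The medians are 3.47 for the feedback and output genes and 3.14 for the other readouts, and 0.12 to 1.15 for the other lists.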

How the data were processed

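Total RNA was made into polyA cDNA with SMART-Seq v4 and Nextera XT, and each library was sequenced as 125 nt paired ends in a lane of its own, with all replicates handled in parallel. The authors deposited estimated counts per gene (expected counts, not normalized) in 1 table per cell type. The submitters' processing notes name STAR 2.7 and the build mm10, and the counter and the use of strand are not given in the sources used here. Each table leaves out genes whose sum over its 3 libraries is under 10 counts. Columns name a cell type but no replicate, so libraries keep their column names. The study calls the samples biological replicates, and p-values measure the spread between these libraries.

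Here counts were rounded to whole numbers. The 13001 genes in both tables were filtered with filterByExpr, which removed 530, and tested with edgeR's quasi-likelihood test (edgeR 4.0.16, R 4.3.3) after TMM normalization, with p-values adjusted by Benjamini-Hochberg over all 12471 genes tested. CPM use the same normalization. The standard error is the log2 fold change over the square root of F. Genes missing from 1 table get a bound against 3 counts per library. Floors and bounds cover counting error only, and a sum of values that are not whole could exceed 9 and still be under 10. Lengths are unions of exons in the basic set of GENCODE M21, which leaves out some annotated transcripts. The test was checked on simulated data in which few genes changed and all genes shared a fixed spread. That check does not cover data where most genes differ, as here. Alternatives were DESeq2 1.42.0, other normalizations, filters and library sizes, missing genes at 0 or 3 counts, a 2-fold threshold and leaving out each library. The study's own comparison used DESeq2.

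All genes of the set are named. Of each other list the text names the 2 genes that rose most and the 2 that fell most among calls without overlap. It also names genes in 1 table only where these are 4 or fewer, and the 2 markers highest in CPM. Some genes of the lists are not reported here by name. The members and lists were chosen with earlier results of these data known. Figures were drawn with matplotlib 3.10.9.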

Additional observations from a re-analysis of the deposited data

How the results depend on the processing

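The calls of the 10 genes were stable under the 15 alternatives, with the exceptions given here. With at least 10 counts asked of every library, 3 of them rose in place of 6, because *Dusp4*, *Dusp6* and *Etv4* were not tested. With missing genes set to 0 or 3 counts, *Spry4* joined and 7 rose. Leaving out 1 library at a time, 6 of them rose and 1 fell each time, 31 to 36 other pathway genes rose and 6 to 11 fell, and 6536 to 7895 of all genes were called, against 7656 with all libraries. A test against a 2-fold change, stricter by construction, called 3520 genes in all and left 17 other pathway genes higher and 2 lower. Of the 42 tested genes that the naming rule picks, 10 lost their call under some alternative, in 22 of 619 fits, and none changed direction. Mean levels of the 10 genes moved by less than 1 SD with library totals in place of TMM, in all 19 cases. Setting missing genes to 0 counts moved the median log2 fold change of all genes from 0.03 to 0.17, because genes at 0 in 1 cell type enter. Depth limits *Dusp6* (0 to 15 counts per library), *Dusp4* (4 to 29), *Etv4* (7 to 11) and *Spry4* (not listed) in mESCs most. No paired analysis was possible because replicate numbers are missing from the columns, and a CPCC library could not be matched to its parent clone.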
